A study of Mus musculus with 18 samples.

Results

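The expression of 10 tubulin genes was described across mouse oocyte stages. The genes were *Tubb3*, *Tubb6*, *Tubb2a*, *Tubb2b*, *Tubb4b* and *Tubb5* (β-tubulins), *Tuba1a*, *Tuba1b* and *Tuba1c* (α-tubulins) and *Tubg1* (γ-tubulin), taken by gene symbol from a table of 53715 genes. They were chosen because *Tubb3* and *Tubb6* differed between the primordial groups and between stages in these same libraries. The values of the 10 genes in those comparisons are therefore a description with no test, and tests are given for the primary and the metaphase II (MII) oocytes, *in vitro* against *in vivo*. RNA was measured in 18 libraries from C57Bl/6j x CBA/J mice, 3 in each of 6 groups. Oocytes of primordial and of primary follicles were cut out of fixed, paraffin-embedded ovarian sections by laser capture microdissection (LCM). The *in vivo* LCM groups came from non-cultured ovaries of 14-day-old mice, and the *in vitro* LCM groups from ovaries of 7-day-old mice kept in culture for 7 days. MII oocytes *in vivo* came from superovulated adult mice. MII oocytes *in vitro* came from follicles of such cultured ovaries that grew for 12 further days in alginate before human chorionic gonadotropin was given. Each MII library held 10 oocytes, and the LCM oocytes of a stage were pooled during extraction. Nothing ties the libraries to separate animals, so p-values measure the spread between these libraries, which may be technical.

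Microtubules are hollow polymers of α- and β-tubulin dimers, and they build the meiotic spindle and the cytoskeleton of the oocyte. Mammals encode each subunit in several genes, the isotypes, whose proteins are nearly alike along their length and differ mainly in the acidic C-terminal tail, where enzymes that modify tubulin and motor proteins act. γ-Tubulin does not enter the microtubule wall. It sits in the ring complexes that nucleate microtubules, and in the mouse oocyte, which has no centrioles, these complexes lie at the microtubule organizing centres that form the spindle poles. TUBB3 is widely used as a marker of neurons.

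The end of the coding sequence of 5 β-tubulins is shown because tubulin isotypes are known to differ there, and because near-identical paralogs limit what a read count can assign. Each stretch is the last 60 coding bases before the stop codon, in exon 4, 5′ to 3′ on the coding strand, from GENCODE M21 on GRCm38. Capitals mark bases that had no identical partner when the stretch was aligned with that of *Tubb2a*. The β-tubulin stretches lie at chr13:34074471-34074530 (minus strand, *Tubb2a*), chr13:34127474-34127533 (minus, *Tubb2b*), chr2:25222311-25222370 (minus, *Tubb4b*), chr17:35834985-35835044 (minus, *Tubb5*) and chr8:123421620-123421679 (plus, *Tubb3*).
Tubb2a: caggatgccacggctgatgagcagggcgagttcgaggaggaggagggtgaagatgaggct
Tubb2b: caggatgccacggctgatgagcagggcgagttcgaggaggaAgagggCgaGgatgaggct
Tubb4b: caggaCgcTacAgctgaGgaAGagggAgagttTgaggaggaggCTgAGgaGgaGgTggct
Tubb5: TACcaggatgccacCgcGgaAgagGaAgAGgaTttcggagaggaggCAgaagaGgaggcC
Tubb3: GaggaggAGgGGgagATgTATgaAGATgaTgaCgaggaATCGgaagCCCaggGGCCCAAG
Against *Tubb2a*, 3 bases of *Tubb2b* and 31 of *Tubb3* had no identical partner. These counts are not all substitutions, because the coding sequences differ in length (1335 bases in *Tubb2a*, 1350 in *Tubb3* and 1332 in *Tubb5*). A base also counts where it lies opposite a gap or beyond the end of the *Tubb2a* stretch. Over the whole coding sequence, *Tubb2a* and *Tubb2b* were 96.5% identical, *Tuba1a* and *Tuba1b* 98.3%, and *Tubb3* and *Tubb6* 86.0%. Of all 50-base stretches in the annotated transcripts of *Tuba1a*, 75.5% also occurred in transcripts of another gene, and the share was 75.1% for *Tuba1b*, 52.7% for *Tuba1c*, 49.6% for *Tubb2a*, 41.3% for *Tubb4b* and 36.9% for *Tubb2b*. It was 11.1% for *Tubg1*, nearly all of it shared with *Tubg2*, and 0.0892% for *Tubb5*. *Tubb3* and *Tubb6* shared no 50-base stretch with any other gene. Reads could thus be assigned to *Tubb3*, *Tubb6* and *Tubb5* by sequence, while the split of reads within the *Tuba1* genes and between *Tubb2a* and *Tubb2b* is uncertain. Some gene spans, introns included, also overlap in the annotation, and whether exons overlap was not examined. *Tubb3* overlaps *Gm20388* on its own strand but shares no 50-base stretch with it. *Tuba1a* and *Tuba1b* overlap *Gm49450* on their own strand, and *Tubb4b* and *Tuba1b* overlap *Fam166a* and *Gm41396* on the opposite strand. Few reads went to the annotated pseudogenes, with at most 4 per library for *Tubb4b-ps1* and at most 14 for *Tubb2a-ps2*.

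Each of the 12 LCM libraries held 15149564 to 29205503 counts over 6048 to 13755 genes, and each of the 6 MII libraries 7334817 to 9978830 counts over 14512 to 18239 genes. The LCM and MII libraries were made with different kits (TruSeq RNA Access after amplification, and Smart-seq II), so stage and library preparation cannot be told apart between them, and no test compared them. *Gdf9*, an oocyte growth factor, had 42702 to 104999 reads in the MII libraries, and *Foxl2*, which marks granulosa cells, and *Col1a2*, a stromal collagen, had 0 in all 6. Other genes of the granulosa and stroma lists had reads in all 6 MII libraries, such as the aromatase gene *Cyp19a1* with 334 to 1039 and the smooth muscle myosin gene *Myh11* with 98 to 895. In the LCM libraries the germ cell helicase *Ddx4* had 72 to 15606 reads. Of the other oocyte markers, *Zp1* had 20 to 5427 reads there and *Oosp1* 0 to 53, and all 15 summed to 329 to 2113 TPM. *Col1a1* had 8266 to 466458 reads, so every LCM library labelled as oocytes also held RNA of stromal genes. Of the LCM libraries, 3 stood apart by *Gdf9*, by stroma and theca markers or by surface epithelium markers. The second of primordial oocytes *in vitro* held 7061 *Gdf9* reads where the other primordial libraries held 5 to 135, and 2108 reads of the zona pellucida gene *Zp3* where they held 45 to 121. The second of primary oocytes *in vivo* had stroma and theca markers that summed to 31180.0 TPM, beside 453 to 3544 in the other LCM libraries, and the second of primary oocytes *in vitro* had surface epithelium markers that summed to 4284 TPM, beside at most 773 in the others. These were the primary libraries near 0 for *Tubb3*. Markers of other cell types were high elsewhere. The first of primary oocytes *in vivo*, which had the most *Tubb3* reads, held 7503 TPM of blood and immune markers. All of it came from the hemoglobin gene *Hba-a1*, with 42352 reads. Blood and immune markers summed to 1157 to 7503 TPM in primary oocytes *in vivo* and 0 to 174 *in vitro*, without overlap. Of this list, *Ptprc* and *Adgre1* had 0 reads in all 18 libraries. The first of primordial oocytes *in vitro* held 573 TPM of endothelium markers, beside at most 69.7 in the other LCM libraries. It had 12584 reads of *Tek* and 165 of *Tie1*, and 0 of *Pecam1*, *Cdh5* and *Kdr*. The part of RNA from other cells in the tubulin values was not tested. In bulk samples such as these, fewer cells of a type and less RNA per cell cannot be told apart.

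*Tubb3* was either absent or abundant in the LCM oocytes. In primordial oocytes it had 0, 1 and 8 reads *in vivo* and 0, 34275 and 2 *in vitro*. In primary oocytes it had 44154, 1 and 31700 reads *in vivo* and 10470, 6 and 23681 *in vitro*. Of the 6 primordial libraries, only the one that stood apart by *Gdf9* carried more than 8 reads, against 4 of the 6 primary libraries, and the *in vitro* and *in vivo* groups overlapped at each of these stages. A count of 0 allows up to 3 reads, which is 0.103 to 0.198 counts scaled to the library total (CPM) in an LCM library. Such limits speak of counting error alone, as reads carried no molecular identifiers. In TPM, which scale counts for gene length and library total, the 5 high libraries lay between 811 and 3400 and the others at or below 0.581. The estimated log2 fold change between primordial oocytes *in vitro* and *in vivo* was 11.42, and it was -1.44 without that primordial library, so its direction rested on that library. Between primary and primordial oocytes it was 13.18 *in vivo* and -0.24 *in vitro*, the latter becoming 12.62 without the same library. Between primary oocytes *in vitro* and *in vivo* it was -2.00, and it was -2.58 without the second primary library *in vivo* and -1.42 without the second *in vitro*.

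In MII oocytes *Tubb3* was present in every library, with 7792, 4807 and 5647 reads *in vivo* and 2917, 4416 and 4087 *in vitro*. These were 1174, 863 and 893 TPM *in vivo* and 370, 671 and 671 TPM *in vitro*, and all 3 *in vitro* libraries lay below all 3 *in vivo* libraries. *Gap43* and *Sox10* had 0 reads in all 18 libraries and *Snap25* at most 9, while *Syt1*, a synaptic vesicle gene, had 4298 reads in the primary library *in vitro* that held 6 *Tubb3* reads. In the MII libraries *Syt1* had 230 to 363 reads.

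*Tubb6*, a widely expressed β-tubulin and the closest of the members to *Tubb3* in coding sequence, showed another pattern. It had 2, 5 and 2 reads in primordial oocytes *in vivo* and 1, 22015 and 22575 *in vitro*. In primary oocytes it had 5584, 17684 and 6222 reads *in vivo* and 27490, 3736 and 17429 *in vitro*. The *in vivo* primordial libraries were thus all near the floor, 1 *in vitro* primordial library was as low, and every primary library was high. The estimated log2 fold change between the primordial groups was 12.24 with the library that stood apart by *Gdf9* and 12.02 without it. The *in vitro* libraries that remained had 1 and 22575 reads, so the latter estimate rested on a single library. Nothing is read from it, because *Tubb6* was chosen on this comparison. *In vivo*, the primary and primordial groups did not overlap (log2 fold change 11.77). *In vitro* they did, with a log2 fold change of -0.26. MII oocytes had 435, 752 and 460 reads *in vivo* and 208, 1357 and 1673 *in vitro*, and these groups overlapped.

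**Figure D1:**
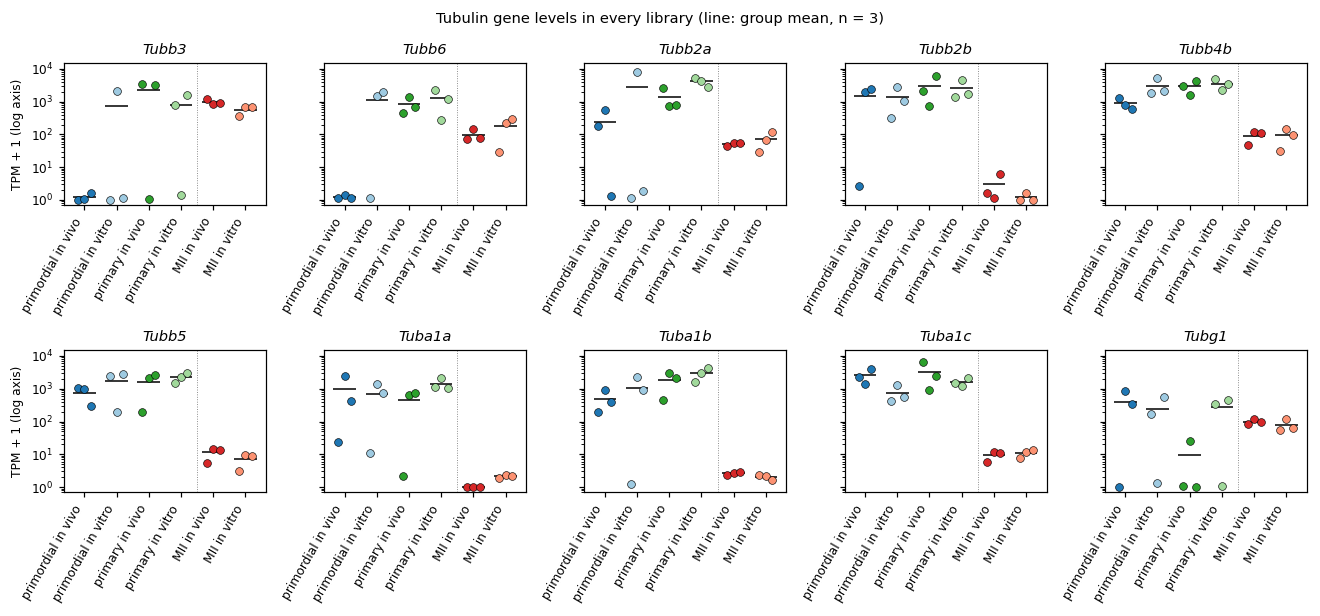
TPM + 1 on a log axis for each of the 10 tubulin genes, with 1 point per library, black lines at the group mean (n = 3) and a dotted line between the LCM and MII groups, which were prepared differently. *Tubb3* and *Tubb6* split into libraries near 0 and libraries at or above 281 TPM among the LCM oocytes, whereas *Tubb4b*, *Tubb5* and *Tuba1c* were present in all 12.

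The other β-tubulins of the LCM oocytes differed in how evenly they were found. *Tubb4b* and *Tubb5*, both broadly expressed in dividing and non-dividing cells, had at least 1000 reads in all 12 LCM libraries. *Tubb4b* had 18818, 11817 and 9486 reads in primordial oocytes *in vivo* and 17780, 90536 and 27536 *in vitro*, followed by 43637, 23651 and 46932 in primary oocytes *in vivo* and 72371, 34673 and 55953 *in vitro*. Scaled to library size, it was the single member whose primordial groups did not overlap, with mean values of 1986 ± 1179 CPM *in vitro* and 580 ± 198 *in vivo* (SD, n = 3). That count of 1 of 10 stands beside 2.04% of all genes tested that were higher *in vitro* without overlap, and since the members were chosen on this comparison nothing is read from it. *Tubb5* had 23308, 22795 and 7037 reads in primordial oocytes *in vivo* and 37366, 5660 and 58432 *in vitro*, and 4485, 52179 and 43656 in primary oocytes *in vivo* and 35039, 57874 and 83231 *in vitro*. Both pairs of groups overlapped.

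*Tubb2a* and *Tubb2b*, known for their high expression in developing brain, lie next to each other on chromosome 13. *Tubb2b* was low in 1 LCM library alone, with 27, 32588 and 41453 reads in primordial oocytes *in vivo*, 3332, 55446 and 14966 *in vitro*, 32915, 12655 and 71105 in primary oocytes *in vivo* and 21679, 80619 and 31543 *in vitro*. *Tubb2a* had 1961, 6254 and 4 reads in primordial oocytes *in vivo* and 1, 111404 and 9 *in vitro*. In primary oocytes *Tubb2a* had 30054, 8468 and 6701 reads *in vivo* and 57900, 53379 and 36433 *in vitro*, so all 6 primary libraries held it, against 3 of 6 primordial libraries with more than 10 reads. As with *Tubb3*, the high primordial value *in vitro* came from the primordial library that stood apart, and the log2 fold change between the primordial groups went from 3.70 to -8.65 without it. The libraries that lacked *Tubb2a* were not those that lacked *Tubb2b*, even though 49.6% of the 50-base stretches of *Tubb2a* are shared.

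Between primary and primordial oocytes *in vivo*, 3 members were higher without overlap between the groups, namely *Tubb6*, *Tubb2a* and *Tubb4b*, beside 2.36% of all genes. *In vitro* it was 0 of 10, beside 9.87% of all genes higher and 1.34% lower. Nothing is read from either count, because stage was part of the choice. The median log2 fold change of the members was 1.45 *in vivo* and 0.24 *in vitro*, beside 0.00 and 0.44 over all genes tested.

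In MII oocytes the same 4 β-tubulins were low. *Tubb4b* had 351, 713 and 754 reads *in vivo* and 262, 1100 and 659 *in vitro*, and *Tubb2a* had 243, 254 and 290 *in vivo* and 197, 368 and 604 *in vitro*. *Tubb5* had 54, 136 and 145 reads *in vivo* and 28, 102 and 85 *in vitro*. *Tubb2b*, with up to 80619 reads in an LCM library, was near the floor, with 5, 1 and 40 reads *in vivo* and 0, 5 and 0 *in vitro*. In all 4 the *in vitro* and *in vivo* groups overlapped.

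The α-tubulins *Tuba1a*, *Tuba1b* and *Tuba1c* form a cluster on chromosome 15 and supply most α-tubulin of many cells. *Tuba1c* was present in all 12 LCM libraries, with 35761, 23094 and 66474 reads in primordial oocytes *in vivo* and 4632, 24642 and 8225 *in vitro*, and 103807, 15360 and 28376 in primary oocytes *in vivo* and 23391, 20872 and 37915 *in vitro*. It was the member with the lowest estimate between the primordial groups, a log2 fold change of -1.83 with overlapping groups. *Tuba1b* had 2452, 11779 and 5523 reads in primordial oocytes *in vivo* and 2, 35135 and 11011 *in vitro*, and 5964, 42301 and 20098 in primary oocytes *in vivo* and 20349, 43996 and 65974 *in vitro*. *Tuba1a* had 272, 30966 and 5532 reads in primordial oocytes *in vivo* and 82, 21549 and 8350 *in vitro*, and 15, 8421 and 6972 in primary oocytes *in vivo* and 13945, 28999 and 14790 *in vitro*. The groups overlapped for all 3 genes at the primordial stage.

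MII oocytes held almost no reads of these 3 genes. *Tuba1a* had 0 reads in each *in vivo* library and 7, 8 and 7 *in vitro*, *Tuba1b* had 9, 9 and 12 *in vivo* and 10, 8 and 4 *in vitro*, and *Tuba1c* had 40, 75 and 76 *in vivo* and 67, 86 and 94 *in vitro*. The α-tubulin reads of MII oocytes belonged to other genes. *Tuba3a*, the leading one by TPM *in vivo*, had 507, 393 and 337 reads *in vivo* and 276, 509 and 507 *in vitro*, and *Tubal3*, an α-tubulin-like gene with 0 reads in all 12 LCM libraries, had 563, 326 and 467 *in vivo* and 681, 869 and 1302 *in vitro*. All 3 *in vitro* libraries of *Tubal3* lay above all 3 *in vivo* libraries, by reads and by TPM. In TPM the nearest of them were 51.0 *in vitro* and 50.2 *in vivo*. Of all genes tested in MII oocytes, 9.37% were higher *in vitro* without overlap by CPM, and edgeR did not call *Tubal3*.

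*Tubg1*, the main γ-tubulin of proliferating cells, was unevenly found in LCM oocytes. It had 0, 13869 and 5857 reads in primordial oocytes *in vivo* and 1769, 7 and 7993 *in vitro*, and 1, 415 and 0 in primary oocytes *in vivo* and 5388, 2 and 8318 *in vitro*. MII libraries were even, with 662, 783 and 752 reads *in vivo* and 508, 917 and 458 *in vitro*. Its paralog *Tubg2* had 1587 to 2162 reads in every MII library and 2089 to 77248 in every LCM library, also in those without *Tubg1*.

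Near absence of an otherwise abundant gene from single LCM libraries was common in these data. Of the 7596 genes that reached 1000 reads in some LCM library, 82.7% had at most 10 reads in another, in a median of 3 libraries. Of the 10 tubulin genes all reached 1000 reads and 5 had at most 10 reads in some library: *Tubb3* in 7 of 12, *Tubg1* in 5, *Tubb6* in 4, *Tubb2a* in 3 and *Tuba1b* in 1. The median over the members was 0.5 libraries. The first primordial library *in vitro*, which also had the fewest reads in total of the LCM libraries, lacked 4 of the 10, and the first and last primary libraries *in vitro* lacked none.

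Levels were then compared between genes on the TPM scale, which corrects for transcript length. It does not correct for reads that fit more than 1 gene, and how these were counted is not known. Levels, orders and shares of genes with many shared stretches may therefore be off beside those of *Tubb3*, *Tubb6* and *Tubb5*. In primordial oocytes *in vivo* the order ran from *Tuba1c* (2549 ± 1278 TPM) through *Tubb2b* (1489 ± 1306), *Tuba1a* (958 ± 1294) and *Tubb4b* (910 ± 359.7) down to *Tubb6* (0.241 ± 0.141) and *Tubb3* (0.219 ± 0.316; SD, n = 3 throughout). In primordial oocytes *in vitro*, *Tubb4b* (2982 ± 1831) and *Tubb2a* (2709 ± 4691) led and *Tubg1* (238 ± 281) came last. Primary oocytes *in vivo* were led by *Tuba1c* (3291 ± 2904) and *Tubb4b* (2983 ± 1420), and primary oocytes *in vitro* by *Tubb2a* (4135 ± 1215) and *Tubb4b* (3515 ± 1419). In each of the 4 LCM groups every gene overlapped its neighbour in the order, so neighbours are not ranked by 3 libraries. Genes further apart in the order did not always overlap. In primordial oocytes *in vivo*, *Tubb6* and *Tubb3* reached at most 0.403 and 0.581 TPM, where *Tuba1c* had at least 1431 and *Tubb4b* at least 616. *Tubg1* (0 to 868) and *Tubb2a* (0.337 to 551) ranged over both levels there.

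In MII oocytes the order was clearer. *Tubb3* led in both groups (977 ± 171 TPM *in vivo* and 571 ± 174 *in vitro*), without overlap with the next gene, *Tubg1* *in vivo* (98.7 ± 16.8) and *Tubb6* *in vitro* (179.8 ± 136). *Tubg1*, *Tubb6*, *Tubb4b* (89.5 ± 36.8) and *Tubb2a* (49.5 ± 6.12) overlapped their neighbours *in vivo*, and lay above *Tubb5* (10.4 ± 5.06) and *Tuba1c* (8.58 ± 3.22). *Tubb2b* (1.97 ± 2.77), *Tuba1b* (1.62 ± 0.270) and *Tuba1a*, listed at 0, came last.

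As a share of the TPM of all 7 β-tubulin genes in the table, *Tubb3* made up 87.6%, 72.7% and 77.7% in MII oocytes *in vivo* and 80.7%, 60.1% and 56.6% *in vitro*. *Tubb6* made up 8.00% ± 3.62 *in vivo* and 16.8% ± 9.59 *in vitro*, and for both genes the groups overlapped. In LCM oocytes no single β-tubulin led throughout, and *Tubb3* reached at most 28.8%, in a primary library *in vivo*. The share of *Tubb4b* in the 3 primary libraries *in vivo* was 24.6% ± 0.896 by TPM and ranged from 20.6% to 27.1% by reads, while the TPM share of *Tubb5* there ranged from 1.64% to 32.8%. Among the 8 α-tubulin genes, *Tuba3a* (49.5% ± 4.42 *in vivo* and 40.5% ± 5.02 *in vitro*) and *Tubal3* (25.9% ± 4.75 and 42.7% ± 4.39) made up most of the TPM of MII oocytes. *Tuba3b* made up 11.2% ± 3.37 *in vivo* and 4.94% ± 3.57 *in vitro*. Shared 50-base stretches were sought for the members alone, so the split of reads between *Tuba3a* and *Tuba3b* was not checked. By reads, *Tubal3* was above *Tuba3a* in both groups, at 37.8% beside 34.6% *in vivo* and 56.5% beside 25.7% *in vitro*. *Tuba1a*, *Tuba1b* and *Tuba1c*, uncertain among themselves, made up most of every LCM library, and *Tuba4a* took up to 18.7%, in the primordial library that stood apart.

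**Figure D2:**
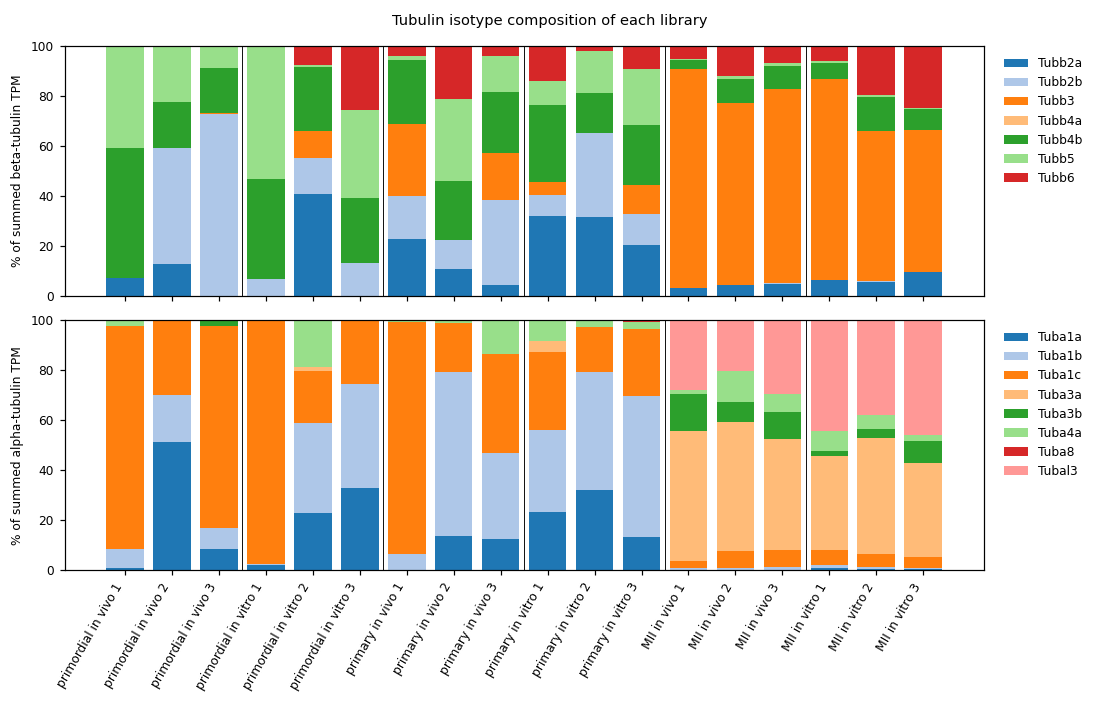
Percentage of the summed β-tubulin TPM (top) and α-tubulin TPM (bottom) held by each gene in each of the 18 libraries, with vertical lines between groups. *Tubb3* held 56.6% to 87.6% of β-tubulin in the MII libraries, and in these libraries *Tuba3a* and *Tubal3* held most α-tubulin, where the *Tuba1* genes did in the LCM libraries.

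The summed levels of both subunits were also set side by side. Summed β-tubulin was 0.987, 0.912 and 0.689 times summed α-tubulin in primordial oocytes *in vivo* and 10.2, 3.25 and 3.56 times *in vitro*. It was 1.68, 1.39 and 2.92 times in primary oocytes *in vivo* and 3.38, 2.09 and 1.78 times *in vitro*. In MII oocytes it was 7.43, 7.03 and 7.73 times *in vivo* and 3.99, 5.40 and 4.32 times *in vitro*. The primordial and the MII groups did not overlap, in opposite directions, and the primary groups did. The ratio of 10.2 came from the primordial library with the lowest α-tubulin sum, 439 TPM, which held 2 *Tuba1b* reads.

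Whether tubulin expression differed between cultured and non-cultured oocytes was tested first in primary oocytes. All 10 members passed the filter on low counts in both models. In primary oocytes 0 of the 10 members were called by edgeR at an adjusted p under 0.05 with a fold change no smaller than 2, as was 0 of 15317 genes (0%). None of the members had an unadjusted p under 0.05, as 1479 of all genes had, and DESeq2 called 0 members. The largest estimate was that of *Tubg1*, 144 ± 132 CPM *in vitro* and 5.57 ± 9.60 *in vivo*, a log2 fold change of 4.69 ± 2.56 (SE) for which edgeR's quasi-likelihood test gave an adjusted p of 0.540. *Tubb3* had a log2 fold change of -2.00 ± 1.67 and *Tubb6* one of 0.22 ± 1.69. The members' median was 0.31, beside 0.44 over all genes.

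*Tuba1a* was the single member of 10 higher *in vitro* without overlap between the primary groups, beside 8.74% of all genes. Its levels were 721 ± 459 CPM *in vitro* and 239 ± 207 *in vivo*, with a log2 fold change of 1.59 ± 1.67 and an edgeR adjusted p of 0.883 (0.623 to 1 over the alternatives). With the reads of *Tuba1a*, *Tuba1b* and *Tuba1c* summed before the fit, the log2 fold change of the sum was -0.33. The 12 granulosa marker genes summed to 1159 to 2361 TPM in the primary libraries *in vitro* and 214 to 875 *in vivo*, without overlap, and the part of granulosa RNA in these values was not tested. *Fshr* was at 0 in all LCM libraries. The biological coefficient of variation of the LCM model, the spread between libraries beyond counting error, was 2.02. At this spread a count of 0 does not show that levels were alike.

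In MII oocytes 0 of 10 members were called by edgeR and 0 by DESeq2, beside 60 of 17144 genes (0.35%) by edgeR. Of the members, 2 had an unadjusted p under 0.05, as had 1743 of all genes. *Tubb3* was the single member lower *in vitro* without overlap, beside 6.81% of all genes. Its levels were 405 ± 60.9 CPM *in vitro* and 697 ± 203 *in vivo*, a log2 fold change of -0.78 ± 0.33 with an edgeR adjusted p of 0.459, and its estimates over the alternatives ran from -0.90 to -0.52 with adjusted p from 0.231 to 0.728. All 3 *in vitro* libraries lay below the *in vivo* libraries. *Tuba1a* was the single member higher *in vitro* without overlap, beside 9.37% of all genes. With 0 reads in each *in vivo* library, its mean *in vitro* was at least 2.21-fold higher than the floor of 3 reads per library, and its edgeR adjusted p was also 0.459 (0.322 to 0.898 over the alternatives). With at most 8 reads per library and 75.5% of its 50-base stretches shared with other genes, these reads cannot be assigned to *Tuba1a* with certainty.

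The other members of MII oocytes had estimates from -3.21 ± 2.02 (*Tubb2b*) to 0.84 ± 0.56 (*Tubb6*) on the log2 scale, and *Tubb4b*, with 0.02 ± 0.45, was closest to 0. The members' median was -0.16, beside 0.04 over all genes. The biological coefficient of variation of the MII model was 0.726. Here too, a count of 0 members called does not show that levels were alike. *Ddx4* was the single marker gene called (log2 fold change 3.55, edgeR adjusted p 0.00206), with 373, 120 and 244 reads *in vivo* and 2769, 3906 and 2661 *in vitro*. The granulosa marker sums overlapped in MII oocytes, at 38.4 to 76.6 TPM *in vivo* and 30.3 to 62.6 *in vitro*.

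**Figure D3:**
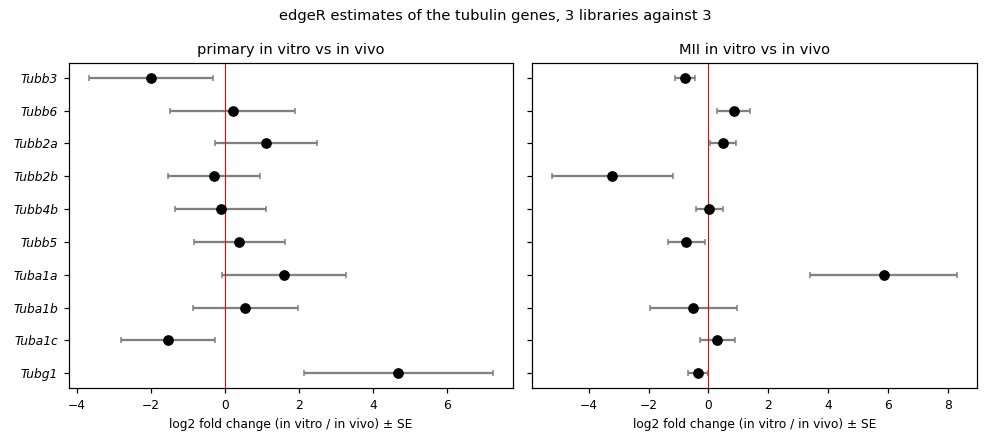
Log2 fold change of *in vitro* over *in vivo* with its SE for the 10 tubulin genes, from edgeR, in primary oocytes (left) and MII oocytes (right), 3 libraries against 3. None passed the test, and the SEs in primary oocytes, 1.22 to 2.56, were larger than most of those in MII oocytes. *Tuba1a* in MII oocytes rests on at most 8 reads per library.

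For *Tubb3* and *Tubb6*, the genes with the most similar pattern over the 12 LCM libraries were sought among 10596 genes by Pearson's r of log2 CPM, a description that carries no p since all points share their libraries. The nearest to *Tubb3* were *Gm38070* (r = 0.982), *Zfp92* (r = 0.956) and *Fbxw21* (r = 0.944). They were sparse, with at most 44, 164 and 29 reads in a library, and had more than 2 reads in the same 5 libraries that were high for *Tubb3*. The nearest to *Tubb6* were *D6Ertd527e* (r = 0.971), *Glce*, an enzyme of heparan sulfate synthesis (r = 0.961), and *Khdc3*, a maternal gene of the oocyte's subcortical complex (r = 0.935). *D6Ertd527e* reached 52622 reads and had 1, 1 and 4 reads in the primordial libraries *in vivo*, where *Tubb6* had 2, 5 and 2.

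The other genes of the tubulin system were taken from 6 lists, namely other tubulins, the γ-tubulin ring complex and augmin, tubulin folding, tubulin modification, tubulin mRNA autoregulation, and microtubule binding and dynamics. None of their genes was called by edgeR in any of the 5 comparisons, where edgeR called 0.0326% of all genes between the primordial groups, 0% between the primary groups, 0.0522% between the stages *in vivo*, 0% between the stages *in vitro* and 0.35% in MII oocytes. DESeq2 called 3, 1, 1, 1 and 3 of them in this order, beside 796, 237, 542, 431 and 351 of all genes. At an unadjusted p under 0.05 the γ-tubulin ring complex and augmin list stood at 7 of 19 genes in MII oocytes, beside 10.2% of all genes tested, with 2 higher and 5 lower *in vitro* without overlap, beside 9.37% and 6.81% of all genes, and with a median log2 fold change of -0.20 and a smallest adjusted p of 0.220. The microtubule binding list stood at 4 of 33, tubulin folding at 2 of 21, tubulin modification at 2 of 21, the other tubulins at 1 of 8 and autoregulation at 0 of 3. In primary oocytes these counts were 1 of 19, 1 of 32, 0 of 21, 0 of 16, 2 of 7 and 0 of 3, beside 9.66% of all genes.

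Between the primordial groups 4 of 7 other tubulins, 1 of 19 ring complex and augmin genes, 2 of 16 modification genes and 2 of 32 microtubule binding genes had an unadjusted p under 0.05, with 0 of 21 folding genes, beside 11.7% of all genes tested. Between the stages the same lists, in this order, stood at 1, 3, 1, 0 and 1 genes *in vivo* and at 1, 1, 0, 2 and 0 *in vitro*, beside 11.2% and 10.9% of all genes. Of the 7 other tubulins, 2 had a higher and 4 a lower estimate between the primordial groups. None of these differed without overlap, beside 313 higher and 697 lower of all 15317 genes. Single libraries weighed there, as *Tuba4a* had 0, 36015 and 0 reads *in vitro* and 1378, 1 and 1 *in vivo*. The genes with the highest TPM in each list varied between LCM libraries as the tubulins did. *Haus4*, an augmin subunit, had 0 to 6071 reads in LCM oocytes and 2259 to 4531 in MII oocytes, and *Tubgcp2*, a γ-tubulin complex protein, 7 to 7300 and 10 to 67. Of the folding genes, the prefoldin subunit *Pfdn5* had 194 to 23481 reads in LCM libraries and the chaperonin subunit *Cct2* 4375 to 24108, and *Cct2* was thus present in all of them. The tubulin polyglutamylases *Ttll4* and *Ttll5* had 38 to 50937 and 73 to 17682 reads. *Scaper* and *Cnot11*, which act in the decay of tubulin mRNA when free tubulin is in excess, had 0 to 20457 and 0 to 2227. *Stmn1*, which binds free tubulin dimers, had 2 to 33830 reads in LCM libraries and 123 to 401 in MII libraries, and *Mapre1*, a protein of growing microtubule ends, 0 to 19616 and 2931 to 8556. *Tuba4a* had 0 to 36015 reads in LCM libraries, with its highest value in the primordial library that stood apart and its next highest in a primary library *in vivo*.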

How the data were processed

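The authors trimmed reads with Trim Galore 0.4.1, mapped them to mm10 with TopHat2 and deposited featureCounts read counts per Ensembl gene without normalization. Strand setting and the treatment of multi-mapping reads are not given in the sources used here. The authors also deposited TPM for 28252 genes. Members and lists were chosen with earlier results of these data known. All 10 members are named. Of each pathway list, genes were to be named if called and otherwise the 2 with the highest mean TPM. Further named were the 3 genes most like *Tubb3* and *Tubb6*, expressed pseudogenes and markers that bear on a member. Counts were tested with edgeR 4.0.16 (quasi-likelihood, robust, TMM) in R 4.3.3, leaving out genes under 10 counts in total, with 1 model for the 12 LCM libraries (15317 genes) and 1 for the 6 MII libraries (17144 genes). Means of CPM are scaled by TMM, floors by the library total. Alternatives used DESeq2 1.42.0, limma 3.58.1 on log2(TPM + 1) or log2(TPM + 0.1), other filters and left-out libraries. The tests were checked on simulated counts with large changes. They recovered most of these at the spread of the MII libraries and none at that of the LCM libraries. Changes as small as that estimated for *Tubb3* in MII oocytes were not simulated. Sequences come from GENCODE M21. Some marker values and sequences are not reported here.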

Additional observations from a re-analysis of the deposited data

Results flagged for a closer look

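The ratio of summed β-tubulin to summed α-tubulin TPM moved in opposite directions in 2 stages. In primordial oocytes all 3 *in vitro* libraries lay above all 3 *in vivo* libraries (mean ratio 5.68 ± 3.95 against 0.863 ± 0.155, SD, n = 3, a difference of 4.81). In MII oocytes all 3 *in vitro* libraries lay below (4.57 ± 0.740 against 7.40 ± 0.353, a difference of -2.83). The difference between the stages was not tested. The primordial comparison was part of the choice of the genes, and the *Tuba1* genes, which make up most α-tubulin there, share many 50-base stretches with each other and with other genes.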

How the results depend on the processing

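No member was called under any alternative run, in primary or MII oocytes, and with the replicate block 0 members and 0 pathway genes were called in each comparison. Between the *in vitro* and *in vivo* groups of a stage, the replicate numbers did not pair the samples (same-number correlations of -0.0269 to 0.0159). Whether they pair primordial with primary libraries was not examined. DESeq2 called 3 pathway genes between the primordial groups, 1 between the primary groups, 1 between the stages *in vivo*, 1 between the stages *in vitro* and 3 in MII oocytes, where edgeR called 0. With single libraries left out, the MII count ran from 0 to 3, the latter without the first *in vivo* library, and the other counts stayed at 0. Over all genes, DESeq2 called 796, 237, 542, 431 and 351 in that order, where edgeR called 5, 0, 8, 0 and 60. In MII oocytes edgeR called 263 with no filter and limma 29 on log2(TPM + 1), and leaving out single libraries gave 11 to 378. Between the primordial groups and between the stages *in vivo* edgeR called 0 with either other filter, limma 0 with either pseudocount, and the replicate block left 1 and 0. With the compared groups alone in the fit the counts were 9, 5 and 3 for the first 3 comparisons, and median-ratio size factors gave 1 between the primary groups. Leaving out single libraries gave 0 to 3, 0 to 1 and 0 to 11. Isotype shares from counts in place of TPM moved by less than 1 SD for 62 of 72 gene and group pairs, over the members, *Tuba3a*, *Tubal3* and *Tuba4a*. Of the 10 that moved more, 4 were *Tuba3a* (34.6% and 25.7% of reads) and *Tubal3* (37.8% and 56.5%) in MII oocytes *in vivo* and *in vitro*, whose order *in vivo* turned. The others were *Tubb2a* (21.2%), *Tubb5* (24.7%) and *Tuba4a* (8.10%) in primary oocytes *in vitro*, *Tubb4b* (23.5%) in primary oocytes *in vivo*, and *Tubb5* in MII oocytes (1.54% *in vivo* and 1.12% *in vitro*). The cause of these shifts was not tested. SEs of 1.22 to 2.56 (log2) in primary oocytes limit what could be resolved there.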
